A study of Mus musculus with 6 samples.

Results

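The SERCA pumps of muscle, their small membrane inhibitors, the calsequestrins and the ryanodine receptors were examined as 1 group of 10 genes: Mrln, Sln, Pln, Atp2a1, Atp2a2, Atp2a3, Casq1, Casq2, Ryr1 and Ryr3. The genes were taken by symbol from 49652 gene rows, all 10 were found, and all 10 passed the filter on low counts, which kept 18832 genes. The group was chosen by the KO and WT counts of Mrln in these same libraries, where it was lower in KO. The Mrln difference between genotypes is therefore a description, and nothing is read from the test values printed for it below. The other 9 genes entered by their role.

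The data are bulk RNA-seq counts from muscle stem cells (satellite cells) sorted freshly from uninjured hindlimb muscle of mice 8 to 10 weeks old. All animals belonged to the OPA1-Pax7-CreERT2 design and were given tamoxifen by gavage for 5 days, with collection 3 days afterwards. Cre-negative animals gave the 3 WT libraries and Cre-positive animals the 3 KO libraries, so Cre itself also separates the groups, besides Opa1, the gene for a fusion protein of the inner mitochondrial membrane. As background, this Cre is driven from the stem cell gene Pax7, which mature fibres do not use, and is switched on by tamoxifen. The sort was for alpha-7 integrin and VCAM and against Sca1, CD45 and CD31. The labels do not say whether a library is 1 animal or a pool, and the spread given below is the spread between libraries, which may be partly technical.

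In muscle, calcium is held in the sarcoplasmic reticulum by calsequestrin, released into the cytosol through ryanodine receptors, and pumped back by the SERCA ATPases. Myoregulin (Mrln), sarcolipin (Sln) and phospholamban (Pln) are single-pass membrane peptides that bind the pump and lower its activity. Myoregulin is best known from skeletal muscle fibres, sarcolipin from atrial and some skeletal muscle, and phospholamban from heart, slow fibres and smooth muscle.

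Gene counts per library ran from 41410136 to 56606886. Opa1 transcripts, the check on the labels, stood at 68.2, 31.4 and 68.8 CPM (reads scaled to a common library size after TMM normalization) in WT replicates 1 to 3 and at 17.5, 34.4 and 27.1 CPM in KO replicates 1 to 3. The library labelled WT replicate 2 went against its label, with a value between those of the KO libraries, and each difference below is also given without it where that changes its direction or moves it by much. Stem cell genes were abundant in every library, with Chodl at 2450 to 5870 CPM and Sdc4 at 1040 to 1900 CPM. Cell cycle genes divided the libraries across genotype, with a summed level of 624, 181 and 549 CPM in the 3 WT libraries and 1240, 204 and 178 CPM in the 3 KO libraries over 20 genes, Pcna (50.8 to 141 CPM) and Mcm3 (22.1 to 120 CPM) being the most abundant.

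The 3 inhibitors are encoded by very short reading frames, shown here because most of the exon sequence over which their reads were counted is untranslated. The coding parts were read from GENCODE M21 transcripts (GRCm38), plus strand, with the start and stop codons in capitals.
Mrln, chr10:70219496-70219636, 46 codons and a stop: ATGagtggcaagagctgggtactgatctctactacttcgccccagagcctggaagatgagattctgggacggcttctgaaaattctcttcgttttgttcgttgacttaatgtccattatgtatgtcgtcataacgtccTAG
Pln, chr10:53343864-53344022, 52 codons and a stop: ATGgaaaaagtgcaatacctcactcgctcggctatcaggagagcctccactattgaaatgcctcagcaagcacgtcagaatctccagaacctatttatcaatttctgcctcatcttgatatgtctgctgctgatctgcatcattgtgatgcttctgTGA
Sln, chr9:53853473-53853568, 31 codons and a stop: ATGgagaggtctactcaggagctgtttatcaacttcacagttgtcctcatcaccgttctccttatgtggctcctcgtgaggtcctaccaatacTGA
Each frame lay within a single exon. Mrln (ENSMUSG00000019933.7) spans chr10:70204664-70219711 with 6 separate exonic blocks that total 1180 bases, and 2 of its 5 annotated transcripts are coding. The complete coding transcript is 443 bases long, of which the frame with its stop codon takes 141.

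The 250 bases before the Mrln start site follow, since Mrln is the gene the comparison turns on. They were taken from RefSeq's GRCm38.p6 promoter table, plus strand, with matches to the E-box CANNTG (N is any base, both strands searched) in capitals.
Mrln promoter, chr10:70204414-70204663: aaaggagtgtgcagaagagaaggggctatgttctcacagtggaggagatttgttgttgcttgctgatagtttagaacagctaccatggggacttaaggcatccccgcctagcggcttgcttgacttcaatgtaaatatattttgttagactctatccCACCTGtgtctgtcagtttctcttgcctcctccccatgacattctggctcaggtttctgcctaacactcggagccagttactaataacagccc
The 1 E-box begins 93 bases before the start. Promoters of 7 members were in the table, and Sln, Atp2a2 and Ryr3 had no entry. Mrln, Pln and Atp2a1 held 1 E-box each, Casq1 and Casq2 held 2 each, and Atp2a3 and Ryr1 held 0, where 66.2% of all 32851 promoter windows of this length held at least 1. The narrower form CAGCTG, which is part of the same search, lay in Atp2a1 and Casq1 (13.0% of all windows). A MEF2 site lay in Casq2 only among the 7 (2.92% of all windows) and a CArG box in none of them (1.47% of all windows).

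Mrln was at 81.4, 45.3 and 117 CPM in the 3 WT libraries and 10.7, 20.7 and 25.7 CPM in the 3 KO libraries, from raw counts of 532 to 6253. Every KO library lay below every WT library, and the lowest WT value belonged to the library labelled WT replicate 2. The means were 81.2 ± 35.8 CPM (SD, n = 3) in WT and 19.0 ± 7.66 CPM (SD, n = 3) in KO, or 23.4% of WT. The fitted log2 fold change, KO minus WT, was -2.09 (SE 0.44, 95% interval -3.13 to -1.06), and it was -2.38 without the library labelled WT replicate 2. In bulk samples, fewer cells that express a gene and less of its RNA per cell cannot be told apart.

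Sln, the sarcolipin gene (chr9:53850164-53854560), stood at 4.51, 5.59 and 12.5 CPM in the 3 WT libraries and 2.03, 5.43 and 4.74 CPM in the 3 KO libraries. WT replicate 3 was the highest library, KO replicate 1 the lowest, and the groups overlapped. The fit gave a log2 fold change of -0.89 (SE 0.55, 95% interval -2.19 to 0.40), and without WT replicate 3 it shrank to -0.31.

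Pln, the phospholamban gene (chr10:53337667-53345987), was the least abundant inhibitor, at 1.31, 3.61 and 1.33 CPM in the 3 WT libraries and 2.13, 2.58 and 1.00 CPM in the 3 KO libraries, from 57 to 173 reads per library. The groups overlapped fully and the fit gave a log2 fold change of -0.13 (SE 0.61, 95% interval -1.57 to 1.32). It turned to 0.53 without the library labelled WT replicate 2 and to 0.18 without KO replicate 3. Pln exons overlap those of 2 genes on the other strand, Cep85l and Gm47644, and Gm47644 alone covers most of the Pln exon bases. The strand setting of the counting is not given, so how reads over the shared bases were assigned is not certain. If strand was ignored, they would be set aside as ambiguous, a class that held 1.21% to 1.42% of reads per library. The Pln counts may then be too low.

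The pumps showed no such separation. Atp2a2 (SERCA2, chr5:122453513-122502225), the pump isoform found in slow and heart muscle and, as a splice form, in most cells, stood at 74.5, 76.0 and 72.9 CPM in the 3 WT libraries and 81.6, 64.4 and 77.6 CPM in the 3 KO libraries. It was the steadiest of the 10 genes, with a log2 fold change of 0.00 (SE 0.14, 95% interval -0.33 to 0.33), so a change of the size seen for Mrln lies far outside its interval. The unclassified gene Gm43361 overlaps Atp2a2 exons on the opposite strand.

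Atp2a1 (SERCA1, chr7:126445858-126463108), the pump of fast fibres, was at 47.5, 61.7 and 89.4 CPM in the 3 WT libraries and 38.2, 52.2 and 64.9 CPM in the 3 KO libraries. WT replicate 3 was highest and KO replicate 1 lowest, and the groups overlapped. Its log2 fold change was -0.35 (SE 0.29, 95% interval -1.03 to 0.33), and -0.08 without WT replicate 3. Exons of Atp2a1 overlap those of Rabep2 on the opposite strand.

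Atp2a3 (SERCA3, chr11:72961169-72993044), an isoform of endothelial, blood and secretory cells, was at 10.9, 10.1 and 4.96 CPM in the 3 WT libraries and 5.58, 4.99 and 12.0 CPM in the 3 KO libraries. WT replicate 3 and KO replicate 2 were lowest and KO replicate 3 highest, so neither genotype held together. The fit gave a log2 fold change of -0.20 (SE 0.47, 95% interval -1.31 to 0.92), -0.71 without KO replicate 3 and 0.02 without KO replicate 2. WT replicate 3 was also the lowest library for the endothelial list (mean log2 CPM 0.26, where the other 5 libraries had 1.94 to 3.56); the part of such cells in the Atp2a3 value was not tested.

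**Figure D1:**
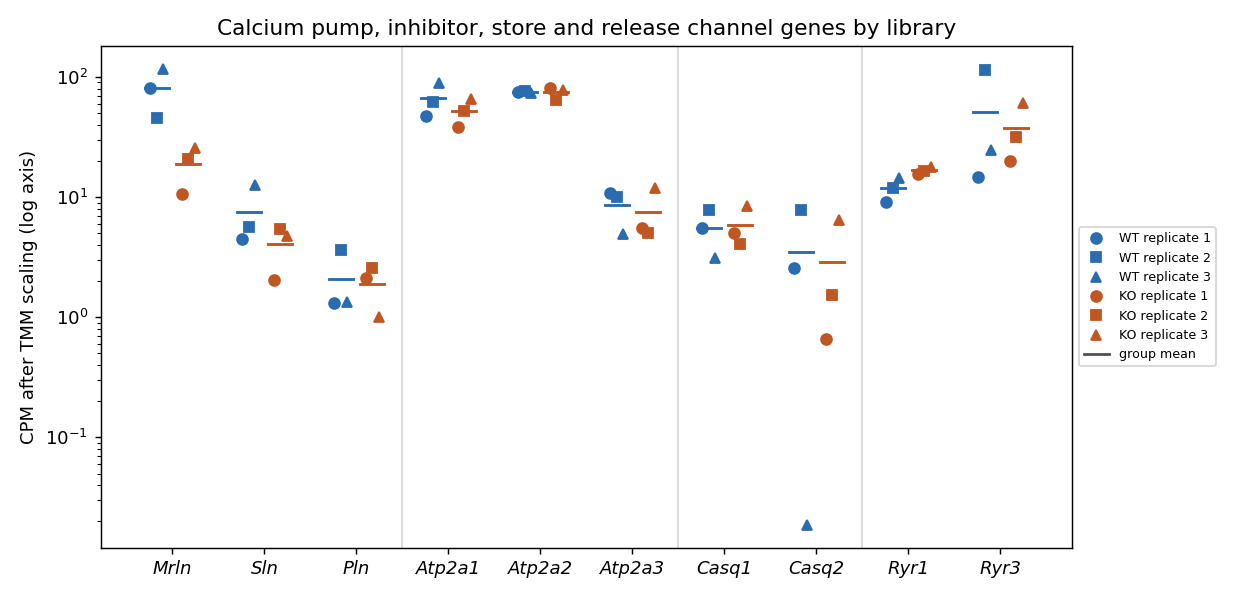
CPM after TMM scaling on a log axis for the 10 genes, 1 point per library (shape gives the replicate, colour the genotype) and a line at each group mean. Mrln in KO (10.7 to 25.7 CPM) lies wholly below WT (45.3 to 117 CPM), Atp2a2 barely moves, and Casq2 in WT replicate 3 sits at 0.0187 CPM.

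To compare levels between genes, CPM was divided by the length of all exons in kilobases (CPM per kb). On this scale Mrln had the highest mean level of the 10 genes, 42.5, followed by Atp2a1 at 17 and Atp2a2 at 12.2. Sln followed at 4.41, Casq1 at 2.90, Ryr3 at 2.34, Atp2a3 at 1.53, Casq2 at 1.16, Pln at 0.722 and Ryr1 at 0.655. Between neighbours in this order only Atp2a2 exceeded the next gene, Sln, in all 6 libraries. Mrln exceeded Atp2a1 in 5 libraries and lay below it in KO replicate 1. Casq2 and Pln were each the higher of the pair in 3 libraries. Lengths matter here: over its 443-base coding transcript alone, Mrln would read 24.1 to 264 CPM per kb. Reads over exons shared with other genes may also be missing from these levels. This concerns Pln most, and its place in the order may be too low.

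The summed level of the 3 pumps was 28.0, 32.2 and 38.6 CPM per kb in WT and 25.5, 26.5 and 33.7 in KO. Atp2a1 made up 43.2% to 66.6% of that sum and Atp2a2 31.0% to 52.7%, with Atp2a3 at 2.43% to 7.37%. The share of Atp2a1 was highest in WT replicate 3 and lowest in KO replicate 1, and the genotypes overlapped.

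The summed level of the 3 inhibitors was 72.8, 43.9 and 109 CPM per kb in WT and 11.4, 22.6 and 25.8 in KO. Mrln supplied 94.7%, 87.4% and 90.8% of that sum in WT and 79.7%, 77.6% and 84.6% in KO. The ratio of inhibitor to pump transcripts per length was therefore 2.6, 1.37 and 2.82 in the 3 WT libraries and 0.446, 0.85 and 0.764 in the 3 KO libraries. WT libraries were all above KO libraries, a difference that rests on Mrln and is given as a description. The level of the ratio depends on which inhibitors are summed: with 1810037I17Rik, the gene of another-regulin, added after the data were seen, it was 4.53, 3.3 and 4.4 in the WT libraries and 2.93, 2.91 and 2.24 in the KO libraries. Without Mrln the ratio was 0.139, 0.173 and 0.259 in the 3 WT libraries and 0.0907, 0.190 and 0.117 in the 3 KO libraries, and the groups overlapped. These are transcript ratios and say nothing of peptide or pump protein. The Mrln count also pools its 5 annotated transcripts, of which 2 are coding, so part of it may come from noncoding RNA.

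**Figure D2:**
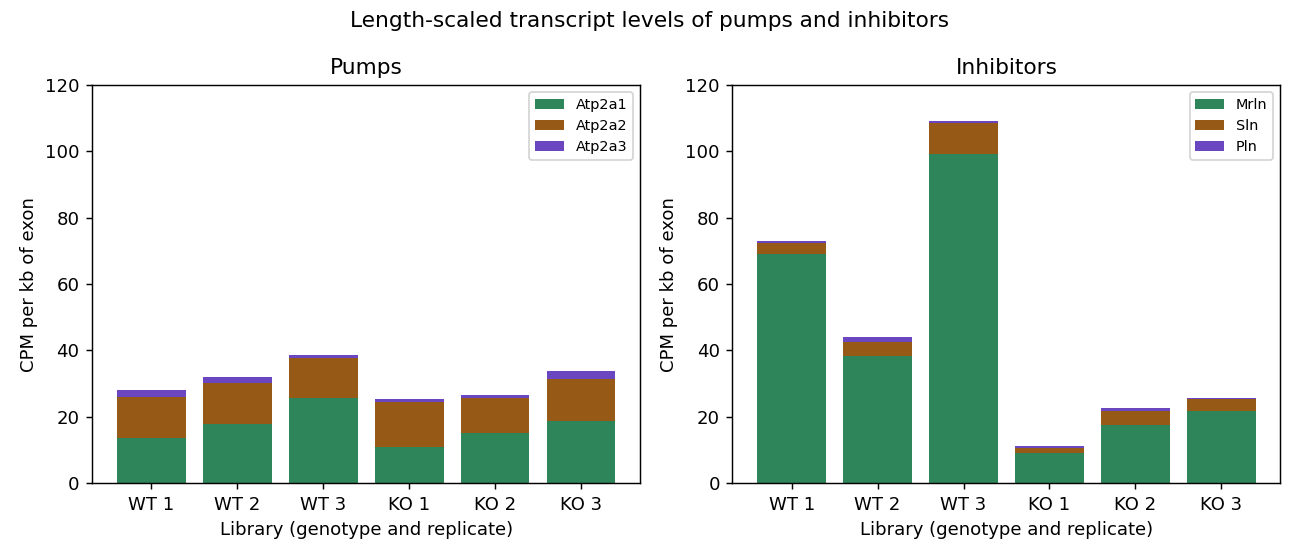
Stacked CPM per kb of exon in each library for the 3 pumps (left) and the 3 inhibitors (right), on the same axis that starts at 0. Pump sums stay between 25.5 and 38.6 in all libraries, while inhibitor sums run from 11.4 to 25.8 in KO and from 43.9 to 109 in WT, with Mrln at 77.6% to 84.6% of the sum in KO and 87.4% to 94.7% in WT.

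Among the calcium-binding store proteins, Casq1 (chr1:172209894-172219868), the calsequestrin of fast fibres, was at 5.57, 7.75 and 3.12 CPM in the 3 WT libraries and 5.04, 4.03 and 8.45 CPM in the 3 KO libraries. The highest libraries were KO replicate 3 and the library labelled WT replicate 2, 1 from each group, and WT replicate 3 was lowest. The fit gave a log2 fold change of 0.09 (SE 0.46, 95% interval -1.0 to 1.18), 0.43 without the library labelled WT replicate 2, -0.27 without KO replicate 3 and -0.19 without WT replicate 3. An annotated antisense gene, Gm17224, overlaps exons of Casq1.

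Casq2 (chr3:102086415-102146514), the calsequestrin of heart and slow muscle, had 146, 373 and 1 reads in WT and 33, 64 and 363 reads in KO. In CPM this was 2.58, 7.79 and 0.0187 in the 3 WT libraries and 0.663, 1.54 and 6.39 in the 3 KO libraries. The same libraries were highest as for Casq1, and WT replicate 3 was nearly empty. The fit gave a log2 fold change of -0.27 (SE 1.48, 95% interval -3.76 to 3.23), 1.14 without the library labelled WT replicate 2 and -1.65 without KO replicate 3, so these libraries do not fix its direction.

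The libraries that were highest for Casq1 and Casq2 were also highest for transcripts of mature fibres. The 26 fibre genes summed to 597, 959 and 462 CPM in the 3 WT libraries and 500, 490 and 803 CPM in the 3 KO libraries. The part of fibre RNA in the calsequestrin values was not tested beyond the fit with a fibre covariate, in which Casq1 had a log2 fold change of 0.12 and Casq2 of 0.82.

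Of the release channels, Ryr1 (chr7:29003344-29125179), the receptor of excitation-contraction coupling in fibres, was at 9.14, 12.0 and 14.5 CPM in the 3 WT libraries and 15.6, 16.6 and 17.9 CPM in the 3 KO libraries. Every KO library lay above every WT library, the reverse of Mrln. The means were 11.9 ± 2.69 and 16.7 ± 1.15 CPM (SD, n = 3 each), a log2 fold change of 0.49 (SE 0.24, 95% interval -0.09 to 1.07). This did not pass in edgeR's quasi-likelihood test (unadjusted p 0.0848, adjusted p 0.99998), and leaving out 1 library at a time gave 0.33 to 0.66. The antisense gene Gm26604 and the miRNA gene Gm44408 overlap exons of Ryr1.

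Ryr3 (chr2:112631355-113217096), a receptor isoform found at low level in developing and some adult muscles, had 14.7, 115 and 24.6 CPM in the 3 WT libraries and 19.8, 31.9 and 60.5 CPM in the 3 KO libraries. Its exons overlap those of the protein-coding gene Aven on the opposite strand. The library labelled WT replicate 2 held the highest value and KO replicate 3 the next, while WT replicates 1 and 3 and KO replicate 1 were lowest. The fit gave a log2 fold change of -0.45 (SE 0.78, 95% interval -2.30 to 1.40) and turned to 0.93 without the library labelled WT replicate 2. Those 3 low libraries are the ones with the highest cell cycle sums given above; with the cell cycle list as a covariate the Ryr3 log2 fold change was -0.16 (SE 0.39).

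Per length, Ryr3 was the larger of the 2 receptors in all 6 libraries, at 64.9%, 91.6% and 66.1% of their sum in WT and 59.4%, 68.8% and 79.6% in KO. Ryr2, the heart isoform, was nearly absent, at 0 to 0.0602 CPM, and did not pass the filter.

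In edgeR's quasi-likelihood test 0 of the 10 genes passed an adjusted p of 0.05, against a background of 0% of all 18832 genes. Opa1 itself did not pass in this test (unadjusted p 0.0215, adjusted p 0.99998). At an unadjusted p under 0.05 there was 1 of 10, Mrln, against 2.09% of all genes. DESeq2 called 1 of 10, again Mrln, against 0.106% of all genes in either direction and 0.0478% lower in KO, and limma voom called 0. Mrln entered the group because of this contrast, so nothing is read from these counts. Groups that did not overlap were seen for 2 of 10 genes, Mrln (lower in KO, as for 3.12% of all genes) and Ryr1 (higher in KO, as for 3.43% of all genes). Signs were negative for 7 genes and positive for Casq1 and Ryr1, with Atp2a2 at 0.00. The median log2 fold change was -0.23, beside 0.01 over all genes.

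**Figure D3:**
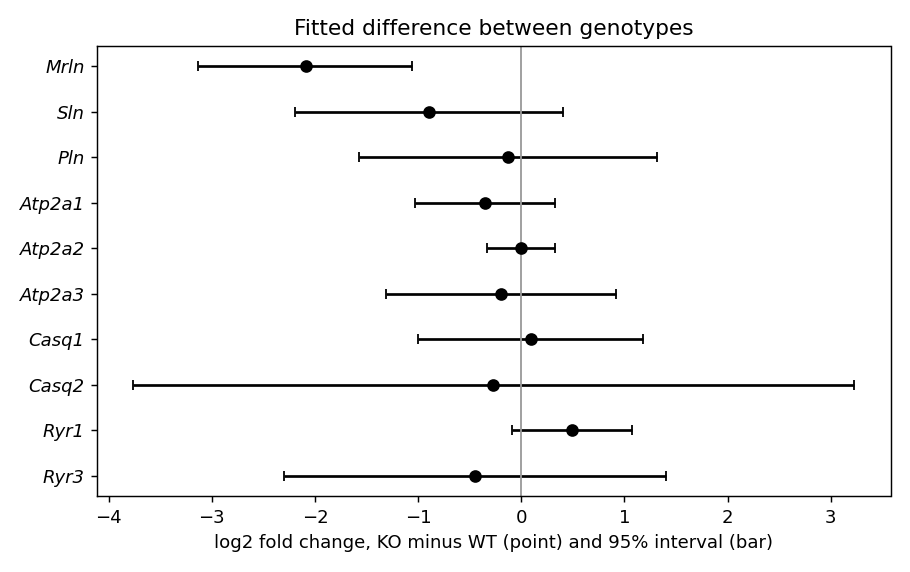
Fitted log2 fold change, KO minus WT, with its 95% interval for each of the 10 genes. Mrln, chosen by this contrast, has an interval of -3.13 to -1.06, which is given as a description. The Atp2a2 interval is the narrowest (-0.33 to 0.33), and Casq2 has the widest (-3.76 to 3.23).

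Because Mrln is known as a fibre gene, it was set beside fibre transcripts in each library. The most abundant fibre genes were Acta1, skeletal actin (129, 341 and 77.3 CPM in the 3 WT libraries and 94.7, 125 and 234 CPM in the 3 KO libraries), Actn3 of fast fibres (73.9 to 144 CPM), Tnnt3, fast troponin T (19.0 to 71.1 CPM), and Tnnt1, slow troponin T (24.5 to 52.0 CPM). WT replicate 3, with the highest Mrln, had the lowest fibre sum and the lowest value for 12 of the 26 fibre genes, Acta1 and Tnnt3 among them. It also had the highest value for 2 of them, Actn3 (144 CPM) and the fast myosin gene Myh1 (18.6 CPM), so fibre genes did not all run one way against Mrln. The libraries with the highest Acta1 and Tnnt3, KO replicate 3 and the one labelled WT replicate 2, held intermediate Mrln.

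The ratio of Mrln to Acta1 was accordingly 0.629, 0.133 and 1.51 in the 3 WT libraries and 0.113, 0.166 and 0.110 in the 3 KO libraries, so the genotypes overlapped. Against Tnnt3 the ratio was 2.33, 0.636 and 6.17 in the 3 WT libraries and 0.483, 0.693 and 0.526 in the 3 KO libraries, with the same overlap at the library labelled WT replicate 2. Against Actn3 it was 0.669, 0.430 and 0.815 in the 3 WT libraries and 0.0841, 0.280 and 0.267 in the 3 KO libraries, with no overlap, and against Tnnt1 it was 1.39 to 2.78 in WT and 0.322 to 1.05 in KO. As a percentage of the summed fibre list, Mrln was 13.6%, 4.72% and 25.3% in the WT libraries and 2.14%, 4.21% and 3.21% in the KO libraries. All of these ratios varied across the 6 libraries, and each had a larger SD in WT than in KO. For Acta1 the SD was 0.699 in WT and 0.0314 in KO, and for Tnnt3 it was 2.83 in WT and 0.111 in KO.

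Of the 26 fibre genes, 0 were called, against 0% of all genes, 8 had positive and 18 negative log2 fold changes, and the median was -0.15. Groups did not overlap for 1 of 26, Neb (nebulin), where 6.55% of all genes did so in either direction. Every KO library lay above every WT library for Neb, as for 3.43% of all genes. With the mean log2 CPM of the fibre list as a covariate, the Mrln log2 fold change was -1.98 (SE 0.455), and with the cell cycle list it was -2.09 (SE 0.505).

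Across the 6 libraries, log2 CPM of Mrln and the mean log2 CPM of the fibre list had a Pearson r of -0.17 (exact permutation p = 0.735, two-sided) and a Spearman rho of -0.03 (exact permutation p = 1.0). Without the libraries farthest from the median of the fibre list, WT replicate 3 and the library labelled WT replicate 2, r was 0.42. This was 1 of 4 relations computed, and its p adjusted over them was 0.896 for r and 1.0 for rho. For myogenic commitment genes r was -0.12 and rho -0.14 (exact permutation p 0.797 and 0.803, adjusted 0.896 and 1.0), and for cell cycle genes 0.07 and -0.14 (exact permutation p 0.896 and 0.803, adjusted 0.896 and 1.0). Both values turned on the 2 farthest libraries, KO replicate 1 and the library labelled WT replicate 2, without which r became 0.71 and 0.97 over 4 libraries.

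The muscle stem cell list had the highest r to Mrln, 0.86, with a rho of 0.77 (exact permutation p 0.0306 and 0.103, adjusted 0.122 and 0.412). Its mean log2 CPM differed little, at 9.33, 9.23 and 9.42 in the 3 WT libraries and 9.11, 9.29 and 9.28 in the 3 KO libraries. Without KO replicate 1 and WT replicate 3, the libraries farthest from the median, r was 0.34. Over the 3 libraries of each genotype, too few to test, r was 1.0 in WT and 0.95 in KO for this list. The corresponding values had opposite signs for the fibre list (-0.97 in WT and 0.73 in KO), the commitment list (0.71 and -1.0) and the cell cycle list (0.91 and -0.98). The permutations moved libraries across genotypes, and Mrln was chosen for its difference between genotypes. A list that differs by genotype therefore gains in r, and nothing is read from the p of any of these lists.

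**Figure D4:**
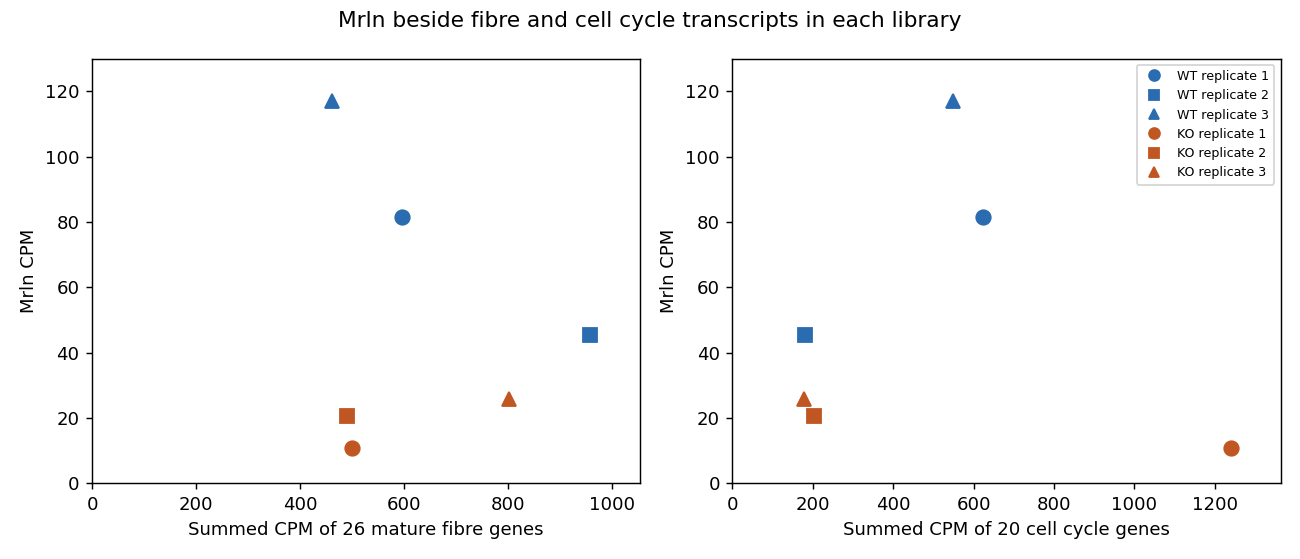
Mrln CPM in each library against the summed CPM of the 26 mature fibre genes (left) and the 20 cell cycle genes (right), with linear axes from 0, colour for genotype and shape for replicate. The highest Mrln value, 117 CPM, sits at the lowest fibre sum, 462 CPM. Every KO library is below every WT library in Mrln, the contrast by which Mrln was chosen, so this would hold on any horizontal axis.

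Among 9561 genes with a mean of at least 10 CPM, the gene whose log2 CPM across the 6 libraries was most like that of Mrln was Tshr, the thyrotropin receptor, with r = 0.994. Tshr stood at 44.0, 33.8 and 66.9 CPM in the 3 WT libraries and 9.76, 17.4 and 22.2 CPM in the 3 KO libraries, so both genes put the 6 libraries in 1 order. Next came Ccdc39, a protein of cilia (0.973), Pfdn5, a prefoldin subunit (0.967), U2af1l4, a splicing factor (0.964), Ercc4, a DNA repair nuclease, and Setd7, a lysine methyltransferase (0.954 each), Uqcc3, an assembly factor of complex III (0.953), and Hmcn2, a hemicentin (0.951). Most opposite were Zfp26 (-0.985), Sept6, a septin (-0.982), and Hey1, an effector of Notch (-0.977). These r are descriptions over 6 libraries that differ in genotype, and 45 genes exceeded 0.9. No other member of the group was among the 8: Sln had r = 0.80, Atp2a1 0.68, Atp2a3 0.17, Ryr3 -0.08, Atp2a2 -0.18, Casq1 -0.26, Pln -0.31, Casq2 -0.36 and Ryr1 -0.58.

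Other genes of calcium handling were taken from a list of 4 roles with 53 gene rows, of which 48 passed the filter. EdgeR called 0 higher and 0 lower, against 0% of all genes, with 1 of 48 at an unadjusted p under 0.05, against 2.09% of all genes. DESeq2 called 0, against 0.106% of all genes, and limma voom called 0. The log2 fold changes were positive for 32 and negative for 16, with a median of 0.04 beside 0.01 over all genes. Groups did not overlap for 4 of 48, or 8.33%, where 6.55% of all genes did so: Smim6 was lower in KO, and Ppp3r1, Cacnb1 (a subunit of the voltage sensor) and Sypl2 (mitsugumin 29 of the triad) were higher.

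Further SERCA-binding micropeptides were represented by 1810037I17Rik, the mouse gene of another-regulin, and Smim6, that of endoregulin. The first stood at 62.7, 72.0 and 70.8 CPM in the 3 WT libraries and 73.4, 63.3 and 57.8 CPM in the 3 KO libraries, with groups that overlapped (log2 fold change -0.08, SE 0.15). Per length its mean level was 59.0 CPM per kb in WT and 55.9 in KO, where Mrln had 68.8 and 16.1. Mrln was the higher of the pair in WT replicates 1 and 3 and the lower in the other 4 libraries. Smim6 was at 1.24, 1.32 and 1.07 CPM in the 3 WT libraries and 0.823, 0.265 and 0.687 CPM in the 3 KO libraries, lower in each KO library but not called (log2 fold change -1.02, SE 0.62).

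Of 20 measured genes of calcium release and the triad junction, 16 had positive and 4 negative log2 fold changes, with a median of 0.16. The most abundant per length were Jsrp1, a junctional protein of the reticulum (92.0 to 180 CPM), Fkbp1a, which binds ryanodine receptors (286 to 458 CPM), and Asph, the gene of aspartyl hydroxylase and junctin (150 to 263 CPM). Their log2 fold changes were 0.03 (SE 0.25), -0.05 (SE 0.20) and 0.19 (SE 0.21). None of the 3 separated the genotypes. Cacna1s, the voltage sensor that opens Ryr1 in fibres, was at 0 to 1.26 CPM.

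Of 10 measured genes of calcium entry and export, 6 had positive and 4 negative log2 fold changes, with a median of 0.01. The 3 most abundant per length were Saraf, a brake on store-operated entry (234 to 306 CPM), Atp2b1, the main plasma membrane calcium pump (215 to 268 CPM), and Orai3, a store-operated channel (20.5 to 35.1 CPM). Their log2 fold changes were -0.09 (SE 0.14), 0.01 (SE 0.13) and 0.10 (SE 0.25).

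Of 16 measured buffers and sensors, 10 had positive and 6 negative log2 fold changes, with a median of 0.02. The most abundant per length included Calm2, a gene for calmodulin (603 to 772 CPM), and Calr, the calreticulin store protein (185 to 445 CPM). Their log2 fold changes were -0.05 (SE 0.16) and -0.21 (SE 0.36), and the genotypes overlapped for both. The 1 gene of the list at an unadjusted p under 0.05 was Ppp3r1, a calcineurin subunit (log2 fold change 0.40, SE 0.15, adjusted p 0.99998 in edgeR's quasi-likelihood test).

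Several members are also genes of other cell types, so the marker lists of those cells are given, each with 0 genes called. Endothelial genes summed to 107 to 175 CPM in WT and 100 to 171 CPM in KO, led by Tek (77.8 to 109 CPM) and Pecam1 (4.36 to 22.5 CPM). Tek alone made up most of that sum in every library. Smooth muscle and pericyte genes summed to 1070 to 1960 CPM in WT and 1220 to 1710 CPM in KO, led by Des (317 to 684 CPM) and Acta2 (260 to 981 CPM), both of which myogenic cells also express; Myh11, which defines smooth muscle, was at 3.42 to 30.3 CPM. Myogenic commitment genes summed to 1180 to 2400 CPM in WT and 1290 to 2540 CPM in KO, led by Des and Myod1 (163 to 669 CPM).

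Fibro-adipogenic genes summed to 884 to 1340 CPM in WT and 717 to 914 CPM in KO. They were led by Dpt (600 to 1200 CPM) and Dcn (32.0 to 89.7 CPM), while their defining receptor Pdgfra was at 0.0241 to 2.56 CPM. Dpt alone made up most of the sum in every library, and the list had 4 positive and 4 negative log2 fold changes. Schwann cell genes summed to 370 to 785 and 567 to 807 CPM, led by Pmp22 (356 to 761 CPM) and Mbp (5.11 to 63.2 CPM). Pmp22 alone made up most of that sum in every library, so the sum mainly follows this gene. Erythroid genes summed to 99.1 to 422 and 33.0 to 257 CPM, led by Hbb-bs (19.1 to 230 CPM) and Hba-a1 (6.39 to 92.7 CPM). Leukocyte genes summed to 8.06 to 17.3 and 7.23 to 18.5 CPM, led by Cd68 and Lyz2, with Ptprc at 0 to 0.651 CPM. Platelet genes, of interest for Atp2a3, summed to 4.43 to 8.17 and 5.04 to 5.48 CPM, led by Itga2b and Gp1ba, with Ppbp at 0 in all 6 libraries. Tenocyte genes summed to 7.65 to 15.3 and 8.09 to 17 CPM, led by Mkx and Thbs4. The part of these cells in the values of Mrln and the other members was not tested.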

How the data were processed

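Each library's deposited file holds unnormalized gene counts in whole reads. STAR 2.6.0c and HTSeq 0.6.1p2, with cutadapt 2.5 and Trim Galore 0.5.0, are named for GRCm38 in the submitters' processing notes; the strand setting is not given in the sources used here. The 5 summary rows were left out (no feature 11.15% to 17.02% of reads). Symbols, positions and exon lengths came from GENCODE M21, which matched 49399 of 49652 rows.

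KO was compared with WT by edgeR 4.0.16 (R 4.3.3; robust quasi-likelihood test, TMM scaling, low-count filter, no covariate, prior count 0.125), with Benjamini-Hochberg adjustment over 18832 genes and a threshold of 0.05. DESeq2 1.42.0, limma 3.58.1, other settings and each library left out were alternatives. Scripts were tested on simulated counts that varied less between libraries than these data, so that test does not show how large a difference the fit could find here. Correlations were taken on log2 CPM (prior count 0.5), with exact permutation over 6 libraries.

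The members and lists were chosen with earlier results of these data known. Named are the 10 members, the 3 most abundant genes per length of each calcium role (and any called), the 4 most abundant fibre genes, the 2 most abundant of each other marker list, the 8 genes most like and 3 least like Mrln, and Opa1. Neb, Myh1, Ppp3r1, Cacnb1, Sypl2, Cacna1s, Ryr2, Myh11, Pdgfra, Ptprc and Ppbp were named after their values were seen. One gene that this rule names is not reported here.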

Additional observations from a re-analysis of the deposited data

How the results depend on the processing

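EdgeR called 0 genes under every alternative run with it, with 324 to 818 at an unadjusted p under 0.05 when a library was left out, and limma voom called 0, while DESeq2 called 20 (518 unadjusted). Sln, Atp2a1 and Ryr1 kept their sign in 14 of 14 alternatives. Mrln was at -2.10 in DESeq2 (adjusted p 0.00324, where edgeR's quasi-likelihood test gave 0.99998) and at -2.38 to -1.74 over its alternatives. Mrln was chosen on this contrast, so its values are no support for a difference. Signs turned for Pln with the fibre covariate (0.01), for Casq2 with limma voom (1.33) and the fibre covariate (0.82), and for Ryr3 with limma voom (0.03). With each library left out in turn, Pln ranged from -0.43 to 0.53, Atp2a3 from -0.71 to 0.02, Casq1 from -0.27 to 0.43, Casq2 from -1.65 to 1.14 and Ryr3 from -0.99 to 0.93. The median of the calcium handling list ranged from -0.01 (without WT replicate 3) to 0.18 (without the library labelled WT replicate 2). The r of Mrln with the fibre list was 0.02 with summed CPM and, leaving out 1 library at a time, -0.47 to 0.51. The cause of these turns was not tested. Pln had 57 to 173 reads per library and Casq2 1 to 373.

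Same-numbered libraries did not deviate together in every pair (r 0.195, 0.082 and -0.072), and the numbers were not taken to pair the samples. With 3 libraries per group, this check cannot tell whether same-numbered libraries share an effect. With the replicate number as a block, 0 genes were called, 515 had an unadjusted p under 0.05, and Mrln was at -2.08.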
